A study of Caenorhabditis elegans with 2 samples.

Results

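The genes described here are 8 bZIP transcription factor genes of Caenorhabditis elegans with known roles in stress responses and growth, namely jun-1, fos-1, skn-1, zip-2, cebp-1, cebp-2, atf-7 and crh-1. They were chosen by name from 29 bZIP genes listed here and 19973 annotated protein-coding genes in all. NHR-237 peak calls and signal values from these data were known when they were chosen, so their own values are given as a description with no test. NHR-237 is a nuclear hormone receptor, and its chromatin binding was measured by ChIP-seq in 2 biological replicates. Both came from whole L1 larvae of both sexes, of unstated age, and of strain OP228. This strain carries the unc-119(ed3) mutation on chromosome III and the integrated transgene wgIs228, from which the eGFP-tagged receptor is expressed. The labels name the receptor in the antibody field and the eGFP fusion as the target, and which of them the antibody recognised is not settled here. There is 1 group, untagged larvae and input DNA were not analysed here, and the promoter that drives the transgene is not given in the sources used here. In whole larvae, strong binding in a few cells and weak binding in many cannot be told apart.

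A bZIP factor grips DNA with a basic region and usually pairs with a second bZIP factor through a leucine zipper. JUN-1 and FOS-1 are the worm counterparts of the mammalian AP-1 pair, and FOS-1 is known for its part in anchor cell invasion. SKN-1 is the Nrf-type regulator of the oxidative stress response and of early cell fate, and it binds DNA without a leucine zipper of its own. ZIP-2, CEBP-2 and ATF-7 are known from responses to bacterial infection, CEBP-1 from axon regeneration downstream of the kinase DLK-1, and CRH-1 as the worm CREB factor from memory and metabolism.

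The bases around the summits of the 5 regions that reached the authors' list of reproducible peaks inside these genes or their promoters are shown first, since the strongest signals lie on them, with the strongest region of crh-1 as an example from outside that list. That list holds the peaks past an irreproducible discovery rate (IDR) threshold. Each sequence is the 151 bases of ce11 centred on the summit, read from the RefSeq sequence 5′ to 3′ along the gene's strand. Capitals mark matches to any of 10 short motifs, on either strand, that are spelled out further below.
jun-1, first start, chrII:9112965-9113115, plus strand: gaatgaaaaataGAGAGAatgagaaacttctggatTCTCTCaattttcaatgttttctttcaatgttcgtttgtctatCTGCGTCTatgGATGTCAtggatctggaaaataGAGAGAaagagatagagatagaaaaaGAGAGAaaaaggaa
zip-2, second start, chrIII:833793-833943, plus strand: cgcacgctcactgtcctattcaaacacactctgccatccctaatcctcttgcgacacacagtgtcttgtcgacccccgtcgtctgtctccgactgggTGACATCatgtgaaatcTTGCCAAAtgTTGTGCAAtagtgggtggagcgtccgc
skn-1, upstream of the T19E7.2c start, chrIV:5656120-5656270, minus strand: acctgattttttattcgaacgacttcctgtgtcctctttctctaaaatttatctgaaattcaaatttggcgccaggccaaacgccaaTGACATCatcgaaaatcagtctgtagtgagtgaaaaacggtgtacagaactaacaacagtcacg
cebp-1, chrX:1454462-1454612, minus strand: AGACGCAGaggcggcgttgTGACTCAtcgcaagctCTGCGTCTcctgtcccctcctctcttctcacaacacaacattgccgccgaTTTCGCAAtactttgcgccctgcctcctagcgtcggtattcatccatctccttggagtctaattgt
skn-1, second IDR region in the intron, chrIV:5657098-5657248, minus strand: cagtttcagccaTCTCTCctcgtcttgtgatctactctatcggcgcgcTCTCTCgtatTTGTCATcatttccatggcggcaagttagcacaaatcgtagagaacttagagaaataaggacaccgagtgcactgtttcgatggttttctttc
crh-1, first start, chrIII:11657298-11657448, plus strand: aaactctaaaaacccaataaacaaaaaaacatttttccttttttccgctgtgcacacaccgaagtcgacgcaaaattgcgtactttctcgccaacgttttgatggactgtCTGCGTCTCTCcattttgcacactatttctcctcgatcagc

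A promoter ran from 1000 bp before to 200 bp after any annotated transcript start. Of the 8 genes, 4 had an IDR summit in a promoter, namely jun-1, zip-2, skn-1 and cebp-1. Over all protein-coding genes the share was 4.66% (931 of 19973). The count was 2 with a promoter of 500 bp before to 100 bp after a start (jun-1 and zip-2), and 2 with only the outermost start of each gene (jun-1 and cebp-1). All 8 had a summit of the pooled list (18.4% of all genes). All 8 also had one in the replicate 1 list (35.0% of all genes) and one in the replicate 2 list (39.4%). The pooled list was made from both replicates together without the IDR threshold, and it holds background as well as peaks. Its −log10 q falls to 0.0177, and that of the replicate lists to 0.0176 and 0.0175, against 2.16 in the IDR list. The strongest pooled promoter region had 0.0361 at atf-7, 0.209 at fos-1, 0.606 at crh-1 and 2.14 at cebp-2, the last just under the IDR list. The regions outside the IDR list thus range from background to near that limit. A summit in the pooled or replicate lists alone is not taken as a called peak here. Genes with more starts have more promoter sequence, and 6 of the 8 have 3 or more. Among all genes with 3 or more starts, 8.56% had an IDR summit and 33.1% a pooled one, against 3.82% and 15.3% of genes with 1 start. These shares are background for the counts, and the choice of the genes used the same lists.

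Values are the signal of each region, a score given by the authors' peak caller on a scale that is not stated, and levels are compared only within a list. The pooled list held 7699 regions with a median signal of 29.0 and the IDR list its 970 strongest, from 52.6 upward. The replicate 1 list held 21745 regions (median 12.2) and the replicate 2 list 25720 (median 11.8). Read depth is unknown. By their strongest pooled region the genes fell in the order of jun-1, zip-2, skn-1, cebp-1, cebp-2, crh-1, fos-1, atf-7. Replicate 2 gave the same order but for atf-7 above fos-1. Replicate 1 placed zip-2 above jun-1, cebp-1 above skn-1, crh-1 above cebp-2 and atf-7 above fos-1. These orders take the strongest promoter region in each list, which need not be the same region. For crh-1 it was at the first start in the pooled list and at the last start in replicate 1 (22.8). At the first start replicate 1 gave 20.7, just under cebp-2 (20.9). For atf-7 the strongest region of replicate 2 did not overlap the pooled one. The 4 genes with an IDR summit stood above the other 4 in each replicate list. The IDR list was itself made from these lists, so this is no independent agreement.

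**Figure D1:**
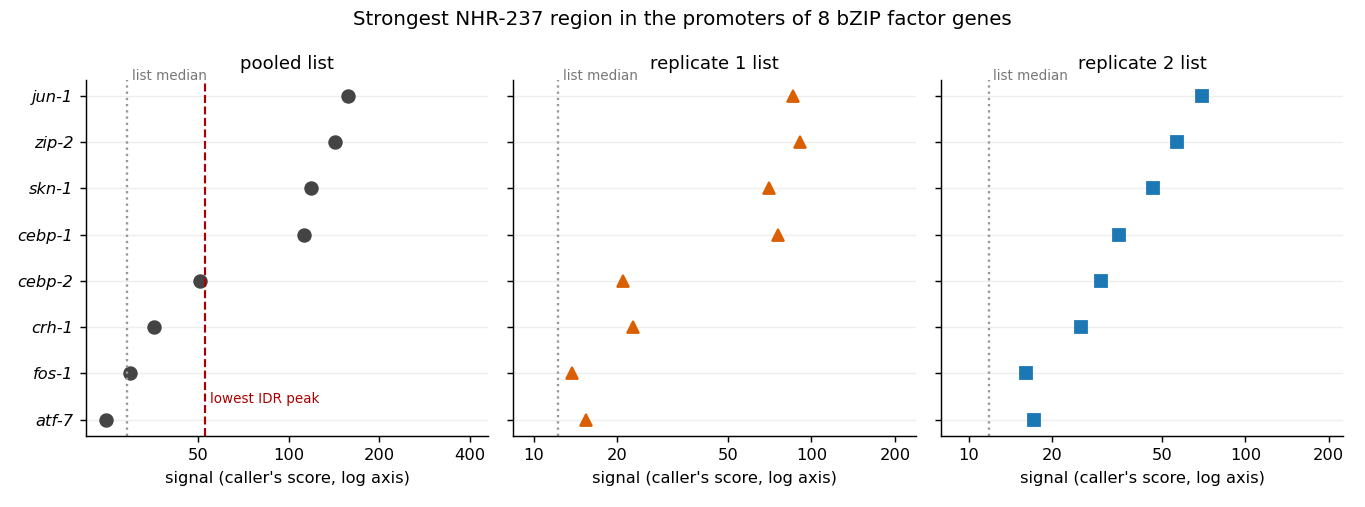
Signal of the strongest region with its summit in a promoter of each gene (caller's score, log axis), in the pooled list and in each replicate's list. Dotted lines are the list medians and the dashed line is the lowest IDR peak (52.6), with jun-1, zip-2, skn-1 and cebp-1 from 112 to 157 to its right and cebp-2 at 50.8 just to its left.

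The AP-1 pair differed in its signal. The gene jun-1 (WBGene00012005, chromosome II, 9113157 to 9132231, plus strand) had the strongest region of the 8 genes. It lay in intergenic sequence from 9112858 to 9113221, with its summit 117 bp upstream of the first of 9 transcript starts. Its signal was 157 in the pooled list (rank 72), 85.8 in replicate 1 (rank 87) and 69.7 in replicate 2 (rank 77). Both replicates thus placed it among their 100 strongest regions. The same summit lay 82 bp upstream of T24H10.11, a noncoding RNA gene on the other strand, and in the promoter window of the piRNA gene 21ur-15099.

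Along jun-1, 4 of the 9 starts had a pooled summit in their promoter, and only the first had one in the IDR list. The other pooled regions were much weaker, with signals of 47.7, 43.2, 29.5 and 28.8. The one of signal 43.2, in an intron and 751 bp upstream of the second start, differed between replicates, with rank 533 in replicate 2 (signal 33.6) and rank 18770 in replicate 1 (9.99). The promoters of the 5 starts that remain held no summit of the pooled list.

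By contrast, fos-1 (WBGene00001345, chromosome V, 6003601 to 6016087, plus strand) had a single pooled region in its promoters, from 6003495 to 6003858. Its signal of 29.6 (rank 3615) was close to the median of the list, and both replicates held it weakly, at 13.7 (rank 7630) and 16.0 (rank 4737). The 2 replicate summits lay 2 bp apart, 72 and 74 bp downstream of the first start, in an intron of fos-1 and in an exon of the antisense RNA gene anr-32. The other 5 starts of fos-1 had no pooled summit.

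The gene skn-1 (WBGene00004804, chromosome IV, 5651039 to 5660384, minus strand) has 4 starts, and its summits singled out 1 of them. The strongest region (5656013 to 5656376) lay in the intron that follows the first exon of T19E7.2a, 590 bp upstream of the start of T19E7.2c. Its pooled signal was 118 (rank 171), with 70.2 in replicate 1 (rank 156) and 46.4 in replicate 2 (rank 255). The replicate summits were again 2 bp apart. The starts of T19E7.2a, T19E7.2b and T19E7.2d had no pooled summit, and replicate 2 alone held weak regions at T19E7.2a, of which the strongest had a signal of 11.9 (rank 12640).

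Outside the promoter window skn-1 held a second IDR region, in the same intron. It lay at 5656991 to 5657354, 1568 bp upstream of the T19E7.2c start, with a pooled signal of 70.9 (rank 532) and replicate signals of 37.1 and 34.6. It was the only IDR region within any of the 8 genes that lay outside their promoters. Weak pooled regions lay elsewhere in the gene, with signals of 24.9 to 26.4.

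The gene zip-2 (WBGene00019327, chromosome III, 832982 to 835814, plus strand) had the second strongest region, from 833686 to 834049. Its pooled signal was 142 (rank 95), with 90.6 in replicate 1 (rank 71) and 56.7 in replicate 2 (rank 136). The summit fell in the intron between the first start and the other two, 220 bp upstream of the second start and 437 bp upstream of the third. In replicate 2 the summit was 67 bp nearer to those starts. At the first start the region was weak (27.6, rank 4490), and this one lay between zip-2 and ceeh-1, a neighbour on the other strand that encodes an epoxide hydrolase. Its summit also fell in the promoters of the noncoding genes linc-37 and K02F3.15. A further pooled region in the 3′ UTR, from 835558 to 835921, had a signal of 51.7, just under the lowest IDR peak.

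The C/EBP genes stood on either side of the threshold. At cebp-1 (WBGene00016997, chromosome X, 1452695 to 1453868, minus strand) the region from 1454355 to 1454718 had a pooled signal of 112 (rank 205). It was 76.0 in replicate 1 (rank 128) and 35.0 in replicate 2 (rank 486). The replicate summits were within 3 bp of each other, and the pooled summit lay 669 bp upstream of the only start. This was farther upstream than usual, as was the skn-1 summit at 590 bp. Over all 931 genes with an IDR summit the median distance was 251 bp upstream of the nearest own start, and the far quartile 416.5 bp. A second region at the cebp-1 start itself was near the bottom of the pooled list (24.1, rank 7034).

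At cebp-2 (WBGene00016754, chromosome I, 6253082 to 6253584, plus strand) the region from 6252796 to 6253159 had a pooled signal of 50.8 (rank 1045). Replicate 1 gave 20.9 (rank 2066) and replicate 2 gave 29.95 (rank 704). It is the nearest of the 8 genes to the IDR limit from below, and cebp-1 at 112 the nearest from above. The summit lay 104 bp upstream of cebp-2 and also 723 bp upstream of lpd-2, which starts beyond the end of cebp-2 on the same strand.

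The remaining genes lay farther below the IDR limit. At atf-7 (WBGene00000223, chromosome III, 4491627 to 4499045, minus strand) the pooled region had a signal of 24.6 (rank 6594). Its summit lay 477 bp upstream of the first start, in a coding exon of the neighbouring chaperonin gene cct-5 and in the window of C07G2.5. Replicate 1 held it at 15.4 (rank 5135). Replicate 2 held no region there, and had instead one of signal 17.1 (rank 3709) centred 22 bp downstream of the start. The pooled region was the only one of the 15 at promoters of these genes without a partner in both replicates.

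At crh-1 (WBGene00000793, chromosome III, 11657767 to 11693981, plus strand) 2 of 7 starts had a pooled summit. The region at the first start (11657191 to 11657554, signal 35.7, rank 2176) had replicate signals of 20.7 (rank 2111) and 25.5 (rank 1060). The region at the last start (11689328 to 11689691, signal 34.7, rank 2340) had its summit 2 bp upstream of that start. It was stronger in replicate 1 (22.8, rank 1674) than in replicate 2 (13.4, rank 8676). The 5 starts between them had no pooled summit.

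**Figure D2:**
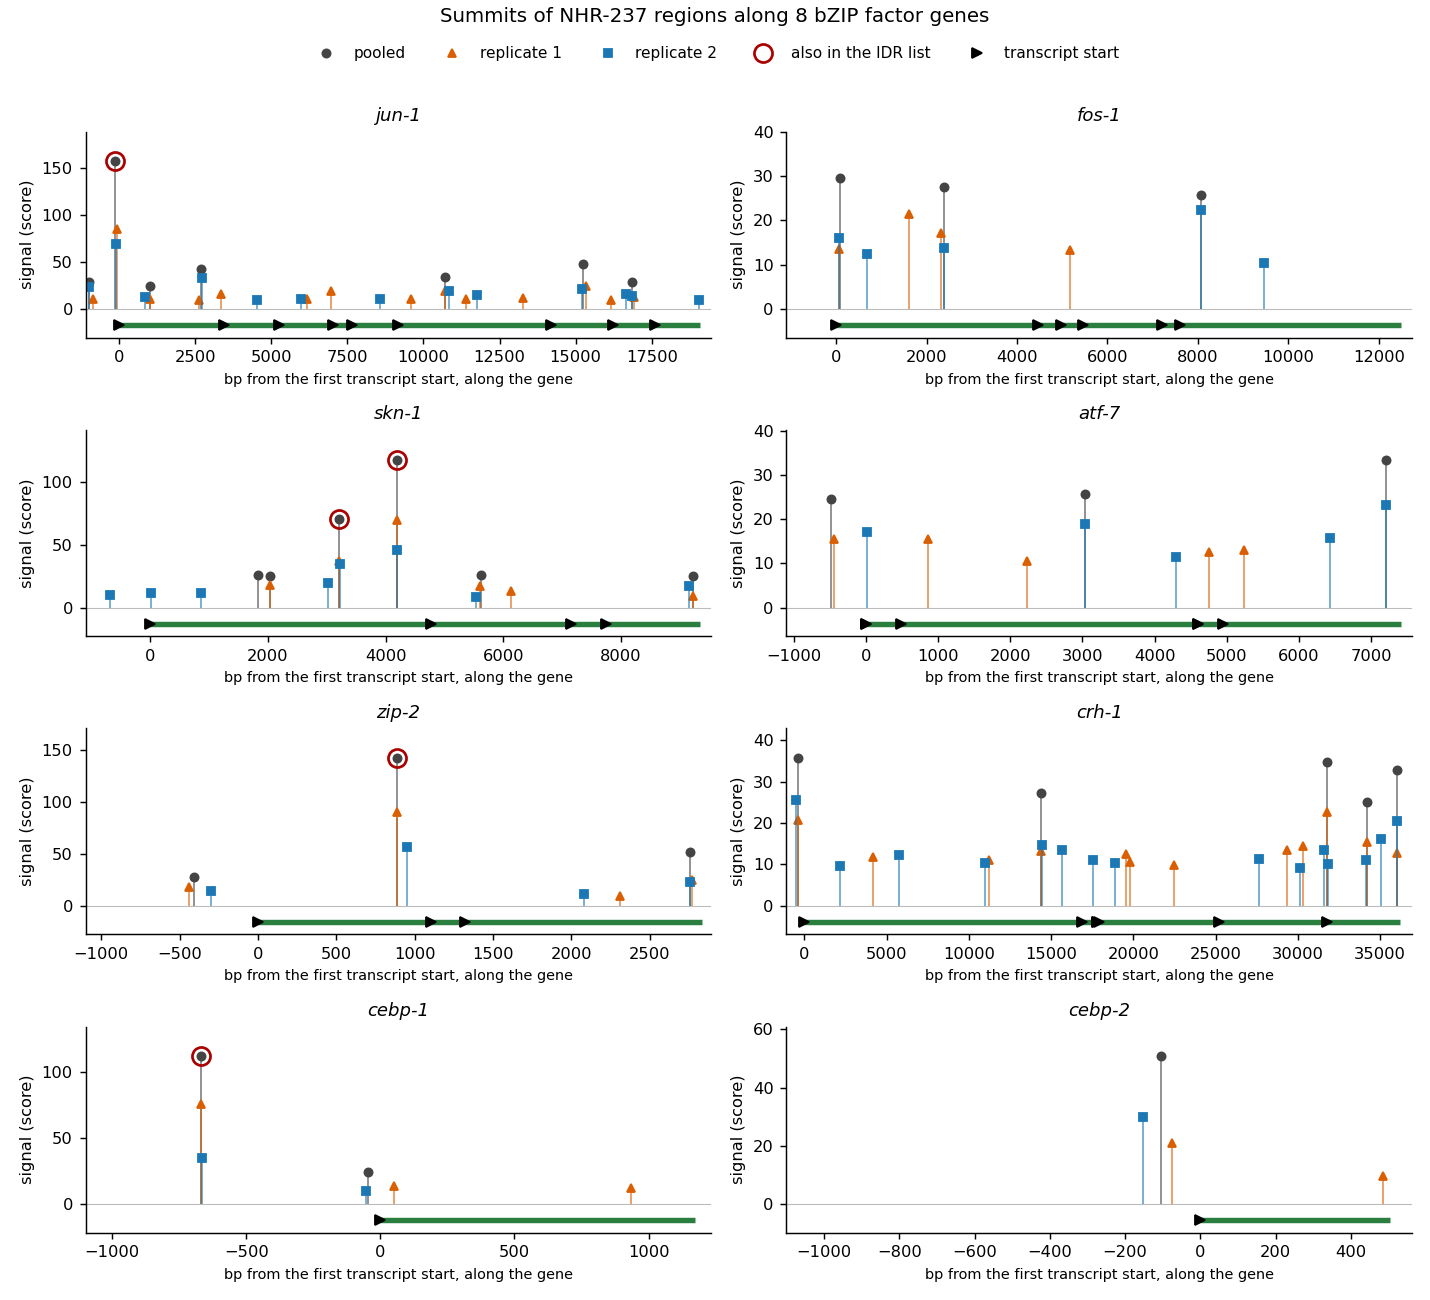
Summits along the 8 genes, by distance from the first transcript start in bp along the gene (x) and signal as the caller's score (y), for the pooled list and both replicates. Scores are on each list's own scale. Rings mark the 5 IDR regions, which stand at the first start of jun-1, within skn-1 and zip-2 and upstream of cebp-1, and arrowheads mark transcript starts on the gene bar.

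Together the 8 genes had 37 distinct starts, of which 5 had an IDR summit in their promoter and 16 a pooled one. Of the 15 pooled regions at these starts, 4 were IDR regions, against 970 of 7699 in the whole pooled list. All 15 overlapped a replicate 1 region and 14 a replicate 2 region by at least 1 bp. The pooled and replicate lists come from the same alignments, so such overlap may be usual. Shares over all starts, and of matches over all pooled regions, are not given here, so these counts only describe the 8 genes. Among the 966 IDR regions held by both replicates, the ratio of the replicate 1 to the replicate 2 score served to set regions against each other and had a median of 1.22, with 1.56 as its upper quartile. The region of jun-1 was close to that (1.23), skn-1 (1.51) and zip-2 (1.60) lay around the upper quartile, and cebp-1 (2.17) exceeded 93.1% of them. Against other IDR regions, the signal at cebp-1 leaned on replicate 1 more than at the other 3.

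**Figure D3:**
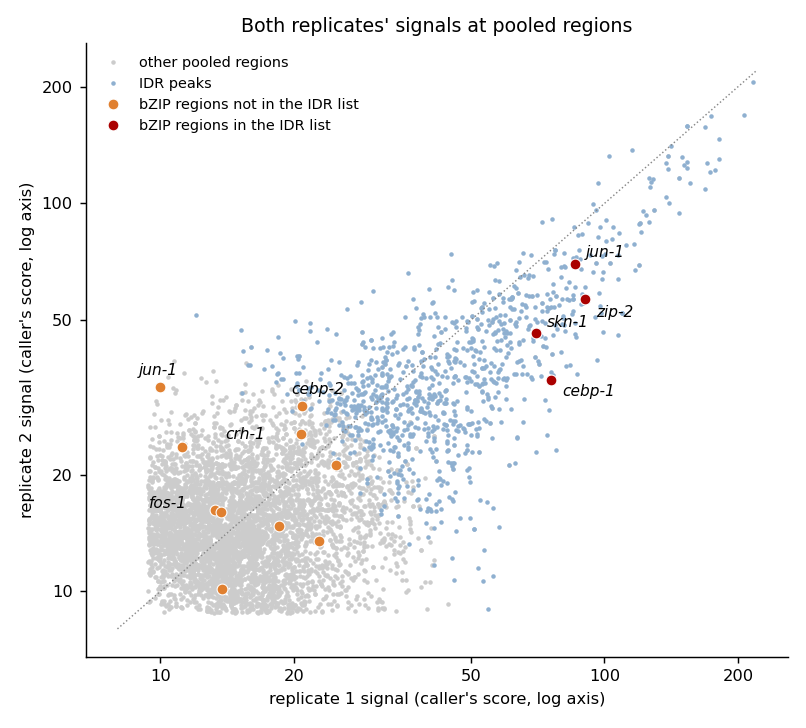
Replicate 1 signal (x) against replicate 2 signal (y), both as the caller's score on log axes, for each pooled region found in both replicates, with the dotted line where the scores are equal. The 4 IDR regions at promoters of the bZIP genes lie on the replicate 1 side of the dotted line, with cebp-1 farthest from it at 76.0 and 35.0. The weaker ones, orange, lie among the other pooled regions, with a jun-1 region far to the left at 9.99 and 33.6.

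The printed windows, and those of all other pooled regions, were searched for 8 motifs, on both strands and within 75 bp of the summit. These were the AP-1 site (TGANTCA), the cyclic AMP response element or CRE (TGACGTCA), a C/EBP-type site (TTGCNNAA), a SKN-1-type site (TTGTCAT), the nuclear receptor half-site (AGGTCA), the E-box (CACGTG), the GATA site (TGATAA) and the GAGA repeat (GAGAGA). The words TGACATC and CTGCGTCT were added after they had been seen in several of these windows. At crh-1 the match to CTGCGTCT overlapped a GAGA repeat on the other strand. The AP-1 site, the CRE and the E-box read the same on both strands apart from any N. Distances run from the summit to the first base of a match along the gene's strand.

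None of the 4 promoter regions in the IDR list held the half-site AGGTCA, which many nuclear receptors bind. It occurred in 3.30% of all IDR windows and in 4.55% of windows of 151 bp just upstream of the outermost start of all protein-coding genes. The window of cebp-2, not printed here, held no match to any of the 10 motifs. The only half-site in the windows of the 15 pooled promoter regions was at the weak region of jun-1 with a signal of 28.8. At zip-2, 2 C/EBP-type sites lay 39 and 49 bp downstream of the summit. At cebp-1 a C/EBP-type site lay 10 bp downstream and an AP-1 site 56 bp upstream of it. C/EBP-type sites were in 15.2% of all IDR windows and 14.1% of upstream windows, and AP-1 sites in 4.02% and 5.23%. At the second skn-1 region a SKN-1-type site began 17 bp upstream of the summit. The jun-1 region of signal 28.8 held one that began 1 bp upstream. SKN-1-type sites were in 1.86% of all IDR windows and 3.29% of upstream windows.

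The word TGACATC stood in 3 of these 4 windows, at jun-1 14 bp, at skn-1 12 bp and at zip-2 22 bp downstream of the summit, on the other strand at jun-1. In all, 10 of 970 IDR windows (1.03%) held it, among them these 3, and 1.22% of upstream windows did. It was picked because it recurred here, so its recurrence supports nothing. The word CTGCGTCT began 3 bp downstream of the summit at jun-1, and it occurred 2 times at cebp-1 and 1 time at the first start of crh-1. It was in 17.5% of IDR windows, 3.66% of other pooled windows and 2.02% of upstream windows. GAGA repeats were in 39.6% of IDR windows and 12.9% of upstream windows. There were 4 matches at jun-1 and 2 at the second skn-1 region, and none at zip-2, cebp-1 or the stronger skn-1 region.

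The windows of zip-2 (53.6% G and C) and cebp-1 (54.3%) lay above the upper quartile of IDR windows (50.3%). Those of jun-1 (33.1%) and skn-1 (39.7%) lay below the lower quartile (40.4%). The median was 45.0% for IDR windows and 33.1% for upstream windows.

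For each gene with an IDR summit, the other gene nearest to it by rank in both replicates, each as a percent of its list, was sought among 925 genes. It was Y71H2AM.20 for jun-1 (pooled signal 162), C53H9.4 for zip-2 (143), T28B8.1 for cebp-1 (107) and sti-1, the gene of a cochaperone of HSP-90, for skn-1 (120). This likeness rests on 2 samples and says only that the peaks are about equally strong.

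The other bZIP genes give the setting. The bZIP list, made by gene name, had 30 symbols, of which 29 matched the annotation. An IDR summit lay in a promoter of 10, and a pooled summit in one of 17, against 4.66% and 18.4% of all genes. Among all genes with 3 or more starts, of which the list holds several, the shares were 8.56% and 33.1%. The list holds the 8 genes described above, and of its other 21 genes 6 had an IDR summit and 9 a pooled one. The median pooled signal of the 17 was 57.2, against 34.1 over the 3679 genes with a pooled summit.

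Of those 6, xbp-1, the factor of the endoplasmic reticulum stress response, had the strongest region. On chromosome III from 4193590 to 4193953, its signal was 125 (rank 145), with 83.5 in replicate 1 and 38.3 in replicate 2, and its summit lay 37 bp upstream of the nearest of its 2 starts. The CREB-type gene let-607 had 71.4 and atf-6, a second factor of endoplasmic reticulum stress, had 68.4. Then followed zip-1 (61.4), zip-4 (57.2, in a region also upstream of the nucleolar protein gene nol-58) and atf-4 (56.1), a factor of the integrated stress response and the lowest bZIP gene inside the IDR limit. Below the limit cebp-2 was followed by crh-2 (43.2) and the mitochondrial stress factor gene atfs-1 (39.8), both stronger in replicate 1 than in replicate 2 by rank.

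Genes that act on these factors were counted in 2 lists. Of 26 genes of p38 and stress signalling, 4 had an IDR summit (15.4%, against 4.66% of all genes) and 13 a pooled one (50%, against 18.4%). The list holds genes with 3 or more starts, and over all such genes the shares were higher, at 8.56% and 33.1%. The 4 were wdr-23, whose product marks SKN-1 for destruction (121, 16 bp upstream of its start, replicates 62.0 and 57.2), ogt-1, for the O-GlcNAc transferase (106), eel-1, for a ubiquitin ligase (77.5), and the kinase gene kgb-1 (69.4). The kgb-1 summit lay 478 bp upstream of that gene and 354 bp upstream of T07A9.12. The 4 became 3 with the narrower promoter (without eel-1), with the nearest start only (without kgb-1) and among the IDR peaks above their median signal. They became 5 with the wider promoter. The p38 kinase gene pmk-1 itself, whose product acts on ATF-7, had no summit in any list in the promoter window of its own annotated start. In the same signalling list and on the same chromosome, pmk-2 had a pooled signal of 43.5 (rank 1408), below the IDR limit. Its ranks were 1632 in replicate 1 and 1677 in replicate 2. The gene pmk-3 had no pooled summit and weak ones in replicate 1 (11.1) and replicate 2 (12.9). Whether these regions bear on pmk-1 was not tested.

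Of 15 genes around CREB, 5 had an IDR summit (33.3%, against 4.66% of all genes) and 9 a pooled one (60%, against 18.4%). This list too holds genes with 3 or more starts, such as kin-1 with 12. Over all such genes the shares were higher, at 8.56% and 33.1%. The 5 became 2 without replicate 2, 4 without replicate 1, 3 with the narrower promoter and 1 among the IDR peaks above their median signal. The strongest was cbp-1, for the histone acetyltransferase that CREB factors recruit (138, rank 108, replicates 76.8 and 59.2, summit 920 bp upstream). The others were gsa-1, for a stimulatory G protein (72.1), the adenylyl cyclase gene acy-1 (71.9), the protein kinase A gene kin-1 (68.1) and the calcineurin gene tax-6 (54.5). At acy-1 and kin-1 replicate 2 was the stronger by rank (262 and 291, against 1402 and 1060). The coactivator gene crtc-1 had no pooled summit in its promoter.

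Genes that these factors are known to switch on were counted in the same way. Of 15 detoxification and redox genes 1 had an IDR summit (idh-1, 61.1), which is 6.67% against 4.66% of all genes. A pooled summit lay at 4 of them (26.7%, against 18.4%). Among these gst-4, a widely used SKN-1 target, had only a weak pooled region of 24.1, which lay in the 5′ UTR of its neighbour gst-2 and had no partner in the promoter in replicate 1. Of 7 infection response genes 1 (14.3%) had both (irg-2, 55.8), in a region that is also 46 bp upstream of C49G7.10. Each of these IDR counts is 1 gene, so neither is set apart from the share of all genes.

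**Figure D4:**
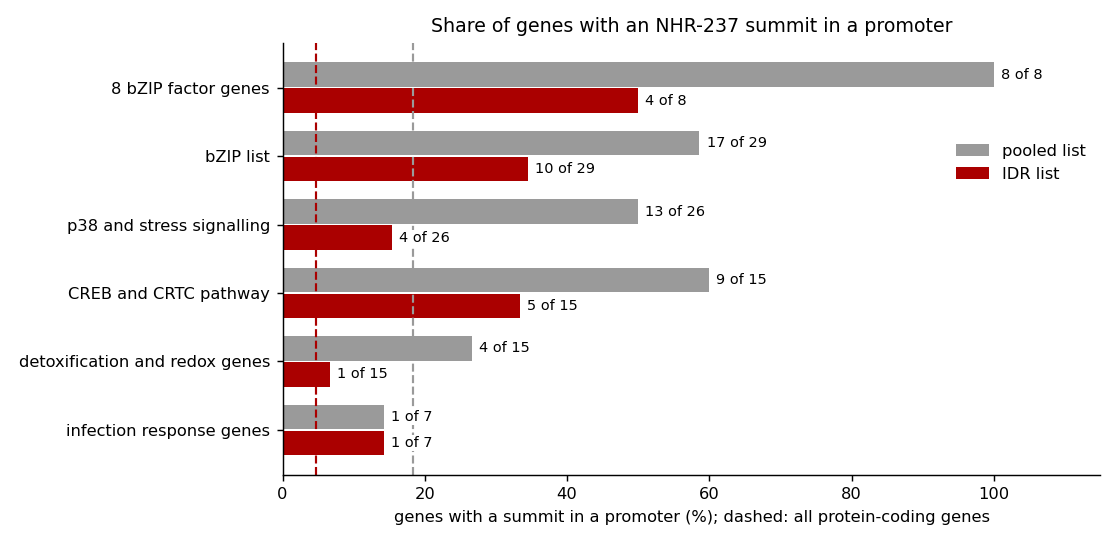
Share of genes with a summit in a promoter (x, percent) in each gene list (y), for the pooled list (grey) and the IDR list (red), with counts at the bars and dashed lines at the shares of all protein-coding genes (18.4% and 4.66%). The 8 bZIP genes stand at 8 of 8 and 4 of 8, while detoxification and infection response genes have 1 gene each in the IDR list.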

How the data were processed

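NHR-237 ChIP-seq peak lists on ce11 were used, for 2 replicates. Per the readme files, the authors made each replicate list from its own alignment with a control, the pooled list from the 2 alignments with a control, and the IDR list from those 3 lists. No aligner, peak caller or IDR threshold is given in the sources used here. The deposited signal column is a score of the authors' peak caller on an unstated scale. Deposited q-values are given as −log10. The 4 lists on ce10 were not used. Genes came from Ensembl release 115 (WBcel235, the coordinates of ce11), and all regions lay within its chromosomes. Positions count from 1. The rank is by signal within a list. Regions of 2 lists matched at 1 bp of overlap.

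No test was made. The members and lists were chosen with earlier results of these data known. The genes named are the members, genes sharing their regions, bZIP genes with an IDR summit and the 3 strongest without one (cebp-2 among them), up to 4 genes of each pathway list and the gene nearest by rank. Besides these, pmk-1, pmk-2, pmk-3, crtc-1, gst-4 and tax-6 were named after their values were seen. The symbols atf-5 and T24B8.5 matched no gene name. The assignment of summits was tested on simulated data. Python 3.11.15, pandas 2.3.3 and matplotlib 3.10.9 were used.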

Additional observations from a re-analysis of the deposited data

How the results depend on the processing

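Of the 8 genes, 4 had an IDR summit in a promoter in 5 of the settings that follow: promoters of 2000 bp upstream to 500 bp downstream, any overlap of the region, the nearest start only, the IDR peaks above their median signal, and without replicate 2. With promoters of 500 bp upstream to 100 bp downstream 2 remained (jun-1 and zip-2, all genes 3.78%). The summits of skn-1 and cebp-1 lay 590 and 669 bp upstream. With the outermost start of each gene alone also 2 remained (jun-1 and cebp-1, all genes 4.35%). The promoter IDR summits of skn-1 and zip-2 lay at later starts. Leaving out each replicate in turn and taking the 970 strongest regions of the other gave 4 to 5 genes of the 8, with cebp-2 added in replicate 2 alone, 10 bZIP genes both times, 4 to 5 signalling genes and 2 to 4 CREB pathway genes, of which 2 stand without replicate 2. The bZIP list had 6 genes with the outermost start and 5 among the IDR peaks above their median. The CREB pathway list had 3 with the narrower promoter and 1 among the peaks above the median. For skn-1 no pooled region was left in a promoter with the narrower promoter or with the outermost start. Where a region was left, the signal of the strongest pooled region was the same in 35 of 38 values. It was 24.1 for cebp-1 with the narrower promoter, 27.6 for zip-2 with the outermost start and 42.1 for atf-7 with the wider promoter. Replicate lists have scores of their own scale and gave no value to set against it. At a summit distance of at most 100 bp, 14 and 11 of the 15 regions had a partner in replicates 1 and 2. With 50 bp to each side of the summit no window held an AP-1 site, and with 100 bp 1 window, at the last start of crh-1, held a CRE. Sequencing depth is unknown and limits all of these values. No paired analysis was possible because there is 1 group and no comparison between groups.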

Other observations

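Within the 8 genes but outside their promoter windows, the pooled list held regions near the ends of 4 genes. Besides that of zip-2 (51.7, rank 1004), summits lay in the 3′ UTR of atf-7 (33.5, rank 2550), crh-1 (32.9, rank 2683) and skn-1 (24.9, rank 6277). In the pooled list the atf-7 region was stronger than the one at its own start (24.6). Replicate 2 had a summit there (23.3, rank 1346) and replicate 1 had none in that UTR. The pooled region at the start had a partner in replicate 1 alone, so the 2 rest on different replicates. Inside jun-1 a region of signal 33.8 lay in an intron 10697 bp from the first start, and fos-1 held 2 intronic regions of 27.5 and 25.7. The skn-1 region of signal 26.4 lay in a coding exon of clec-178, a gene nested in the skn-1 intron.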
